A study of Mus musculus with 23 samples.

Results

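Microglia that had refilled the brain of young mice were compared with the resident microglia of young mice, in 10 of the 23 libraries of the series. The libraries were chosen by their group label alone: 3 are labelled Y-re (young repopulated) and 7 are labelled Y (young). All came from female C57BL/6 mice without any named transgene, and the labelled cell type is microglia. Per the labels' protocols, microglia were depleted with PLX5622, an inhibitor of the receptor CSF1R, given at 1200 ppm in AIN-76A chow, and controls ate the same chow without drug. The labels do not tie a diet to each young library. The other 13 libraries, 5 of old mice (O) and 8 of old repopulated mice (O-re), entered the shared estimate of the spread and a test of whether the change differed with age. The labels give no ages, no time on the drug and no time allowed for refilling. The protocols mention magnetic CD11b selection followed by culture, while the RNA extraction text names sorted microglia. The labels give a number to each library but do not say that each is a separate animal, so p-values measure the spread between libraries.

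Microglia are the resident macrophages of the brain. They arise from yolk sac precursors, renew themselves by local division and depend on signalling through CSF1R for survival, so inhibitors of that receptor remove most of them. When such a drug is withdrawn, the surviving microglia divide and the brain is refilled. Resting microglia are known for a set of homeostatic genes such as P2ry12 and Tmem119, and microglia near plaques or damaged myelin for another set, including Apoe, Axl, Clec7a and Itgax, that is called disease-associated. Macrophages that enter the brain from bone marrow keep a signature of their own, with genes such as Ms4a7 and Clec12a.

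Levels are given as counts per 1000000 after TMM scaling (CPM), and changes as log2 fold changes of young repopulated over young with their standard error (SE). Gene coordinates are those of GENCODE M21 on GRCm38. The microglial markers were high in all 10 libraries. Csf1r, the drug target, lay at 6386 to 7353 CPM (median 6813) in the 7 young libraries and at 5528, 6347 and 6597 CPM in the 3 young repopulated libraries, and its log2 change was -0.17 ± 0.26 (edgeR adjusted p 0.837). Tmem119 lay at 825 to 1404 CPM (median 995) against 1044, 1138 and 1359.9 CPM. As a list, 22 of the 25 homeostatic genes tested had a negative log2 fold change, as described below. Defining markers of T and NK cells (Cd3e, Cd3g, Nkg7), of neurons (Syt1) and of oligodendrocytes (Mog) were too low to be tested.

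Total counts, in units of 1000000, ranged from 43.93 to 47.85 in the young and from 44.9 to 47.77 in the young repopulated libraries. Genes with a count numbered 16408 to 22097 and 17622 to 20533. Young replicate 3 stood apart on the first principal component of the 10 libraries, at 184 where the other 9 lay between -34 and 14, and it had the highest young level of many genes of blood monocytes. The 3 young repopulated libraries are numbered 22 to 24 in the sample titles, while the young ones are numbered 1 to 3 and 12 to 15. A second fit therefore used only the libraries numbered 12 and above, which are young replicates 4 to 7 and the 3 young repopulated libraries. No young library carries a number close to 22, so a batch that follows the numbers above 15 cannot be told apart from repopulation.

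Of 18736 genes tested, 155 were higher and 96 lower in young repopulated microglia, which is 0.827% and 0.512% of the genes tested (edgeR quasi-likelihood test, Benjamini-Hochberg adjusted p under 0.05). At least a 2-fold change was seen in 151 of these 251 genes. In 239 of them the 3 young repopulated values all lay beyond all 7 young values; over all genes tested, 5.95% lay above and 6.12% below in that way. The median log2 fold change over all genes was -0.04. In edgeR 2832 of the 18736 genes had an unadjusted p under 0.05, while DESeq2 called 813 genes and voom 2575. In the libraries numbered 12 and above, 1428 of 15834 genes were higher and 1325 lower (9.02% and 8.37%), and 244 of the 251 genes were called there with the same sign. The 2 young groups fitted alone gave 627 higher and 627 lower of 16728 genes (3.75% each), among them 240 of the 251. The number called in the fit of all libraries fell to 33, 50 and 80 without young repopulated replicate 1, 2 and 3, rose to 341 without young replicate 3 and to 407 without old repopulated replicate 1, and was 122 to 189 without any other young library. Of the 251 genes, 21 were called in each of the 23 fits that left out 1 library. With RLE scaling, Flt1, Klrb1b, P2rx4 and Runx3 lost their calls, and Flt1 did also with upper-quartile scaling. The called genes named below kept their sign in all 23 fits. For those that lost the call in some, the number of fits that kept it or the library left out is given. Some genes also lost the call without libraries of the other groups.

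**Figure D1:**
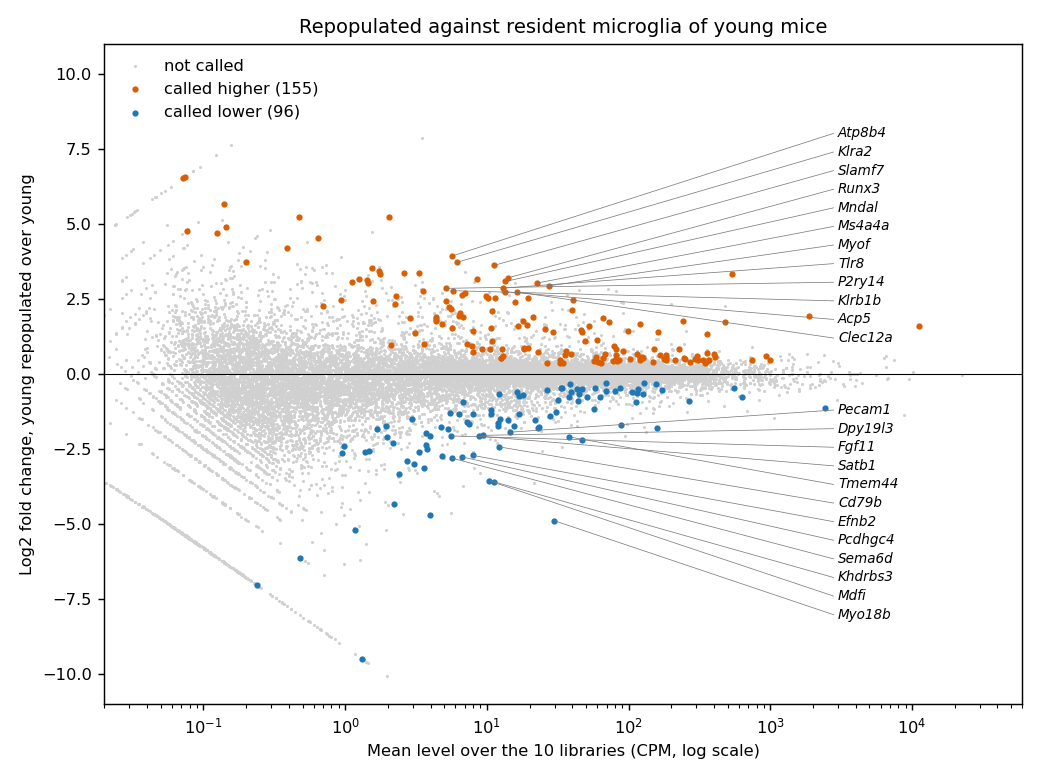
Log2 fold change of young repopulated over young microglia (vertical axis) against the mean level of each gene over the 10 libraries in CPM (horizontal axis, log scale), 1 point for each of the 18736 genes tested. Orange points mark the 155 genes called higher and blue points the 96 called lower at an adjusted p under 0.05; the called genes reach from low to high levels, and the 24 genes with the largest changes under the naming rule are labelled.

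The genes with the smallest adjusted p rose in every young repopulated library. Axl (ENSMUSG00000002602.16, chromosome 7, 25757273 to 25788705), a receptor tyrosine kinase that binds phosphatidylserine on dying cells through its ligand Gas6, lay at 222 to 321 CPM (median 296) in young and at 904, 1119.9 and 807 CPM in young repopulated libraries. The lowest young repopulated value of Axl was above the highest young value, and its log2 fold change was 1.75 ± 0.19 (edgeR adjusted p 6.31e-05). Slc11a1 (ENSMUSG00000026177.11, chromosome 1, 74375195 to 74386062), a metal ion transporter of the phagosome membrane, rose from a young range of 155 to 207 CPM (median 177) to 347, 321 and 321 CPM, with a log2 fold change of 0.85 ± 0.10 (edgeR adjusted p 0.000112). Tnfsf8 (ENSMUSG00000028362.2, chromosome 4, 63831308 to 63861347), which encodes the ligand of CD30, rose from a young range of 2.28 to 10.1 CPM (median 3.36) to 25.4, 26.3 and 29.8 CPM, a log2 change of 2.53 ± 0.31 (edgeR adjusted p 0.000112). The groups did not overlap for any of these 3 genes. Pilra (ENSMUSG00000046245.13, chromosome 5, 137821952 to 137836281), an inhibitory receptor of the paired immunoglobulin-like type, rose from a young range of 27.9 to 42.3 CPM (median 30.5) to 66.98, 103 and 79.4 CPM, a log2 fold change of 1.39 ± 0.17 (edgeR adjusted p 0.000112). Its level was also called higher in old repopulated than in old microglia, where the log2 fold change was 0.97 ± 0.15 (edgeR adjusted p 0.0079). All 4 genes were called in each of the 23 fits that left out 1 library.

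The 12 largest rises under the naming rule were in Atp8b4, Klra2, Slamf7, Runx3, Mndal, Ms4a4a, Myof, Tlr8, P2ry14, Klrb1b, Acp5 and Clec12a, with log2 fold changes between 2.73 and 3.93. That rule admitted only genes whose groups did not overlap. Left-out fits kept the call of Mndal in 21 of 23 and of Myof in 14. Atp8b4 belongs to the phospholipid flippases, which move lipids between the leaflets of a membrane. It lay at 0.55 to 2.53 CPM (median 0.936) in young libraries and at 20.5, 18.4 and 10.1 CPM in young repopulated ones, a log2 fold change of 3.93 ± 0.73 (edgeR adjusted p 0.00991). Runx3 (ENSMUSG00000070691.10, chromosome 4, 135120652 to 135177990), a transcription factor with roles in lymphocytes and dendritic cells, lay at 1.73 to 16.4 CPM (median 1.96) against 38.1, 45.6 and 29.1 CPM, a log2 change of 3.21 ± 0.81 (edgeR adjusted p 0.0492). Its relative Runx2 rose as well, from a young range of 0.167 to 1.01 CPM (median 0.342) to 3.84, 7.22 and 3.16 CPM, with a log2 fold change of 3.43 ± 0.67 (edgeR adjusted p 0.0117). Runx1, the best known family member in blood development, had a log2 fold change of -0.22 ± 0.11 (edgeR adjusted p 0.369). Runx3 was called in 6 of the 23 fits that left out 1 library, with log2 fold changes of 3.08 to 4.22 without any 1 of the 10 libraries. With a term for the library number it changed by 2.77 (edgeR adjusted p 0.136). Runx2 and Atp8b4 lost the call in 1 of the 23 fits each, without young repopulated replicate 2 and 1. Among the 4 genes of the RUNX list, drawn up after these values were seen, 2 rose and none fell, against 0.827% and 0.512% of all genes.

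Slamf7, Klra2, Klrb1b, Tlr8 and Acp5 were also among these rises. Slamf7, a receptor of the SLAM family that engages itself on neighbouring cells, went from a young range of 1.40 to 6.29 CPM (median 2.23) to 51.3, 22.04 and 20.9 CPM, a log2 fold change of 3.62 ± 0.72 (edgeR adjusted p 0.0134). Of the 11 tested genes of the SLAM list, which was drawn up after the values were seen, 5 rose (Slamf7, Cd48, Ly9, Cd84 and the adaptor Sh2d1b1) and none fell. The share called over all genes was 0.827% higher and 0.512% lower. The median log2 fold change of the SLAM list was 0.81. Without young repopulated replicate 1, 2 and 3 the number that rose was 0, 2 and 4, and Cd48 was called in 21 of the 23 left-out fits, Ly9 in 20, Cd84 in 22 and Sh2d1b1 in 20. Klrb1b, an inhibitory lectin-like receptor first known from NK cells, rose from a young range of 0.723 to 7.60 CPM (median 0.9996) to 12.5, 19.7 and 10.99 CPM, with a log2 fold change of 2.78 ± 0.70 (edgeR adjusted p 0.0471). Klra2, a lectin-like receptor of the Ly49 family, rose from a young range of 0.351 to 2.98 CPM (median 0.983) to 7.28, 38.5 and 6.05 CPM, a log2 change of 3.72 ± 0.81 (edgeR adjusted p 0.0251). Without replicate 2, the highest, the change was 2.38 and was not called (edgeR adjusted p 0.311). Tlr8, an endosomal sensor of RNA, rose from a young range of 3.40 to 5.55 CPM (median 4.71) to 37.2, 41.97 and 19.2 CPM, a log2 change of 2.86 ± 0.60 (edgeR adjusted p 0.0189). Acp5, the tartrate-resistant acid phosphatase of osteoclasts and some macrophages, rose from a young range of 1.86 to 13.2 CPM (median 3.90) to 47.5, 31.3 and 20.5 CPM, with a log2 fold change of 2.74 ± 0.67 (edgeR adjusted p 0.0421). Left-out fits kept the call of Slamf7 in 22 of 23, Tlr8 in 21, Klra2 in 18, Acp5 in 10 and Klrb1b in 6. Without any 1 of the 10 libraries the log2 fold change of Klrb1b was 2.52 to 3.60 and that of Acp5 2.39 to 3.21.

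The 12 largest falls were in Myo18b, Mdfi, Khdrbs3, Sema6d, Pcdhgc4, Efnb2, Cd79b, Tmem44, Satb1, Fgf11, Dpy19l3 and Pecam1, with log2 fold changes between -4.89 and -1.94. The calls of Pcdhgc4, Tmem44, Fgf11 and Dpy19l3 were kept in 12, 15, 20 and 21 of the 23 left-out fits. Myo18b (ENSMUSG00000072720.9, chromosome 5, 112688876 to 112896362), an unconventional myosin, fell from a young range of 17.6 to 50.6 CPM (median 47.3) to 1.71, 0.555 and 1.99 CPM, with a log2 fold change of -4.89 ± 0.92 (edgeR adjusted p 0.0112). Khdrbs3 (ENSMUSG00000022332.7), an RNA-binding regulator of splicing, fell from a young range of 7.55 to 19.2 CPM (median 14.6) to 1.11, 0.622 and 1.94 CPM, a log2 fold change of -3.55 ± 0.65 (edgeR adjusted p 0.00805). Mdfi, which binds and holds back myogenic transcription factors, fell from a young range of 13.4 to 18.7 CPM (median 14.2) to 1.28, 0.755 and 1.74 CPM, a log2 change of -3.61 ± 0.64 (edgeR adjusted p 0.00629). None of these 3 genes had a young repopulated value within the young range, which the naming rule required. Satb1, which organises chromatin in lymphoid and other cells, fell from a young range of 9.49 to 13.8 CPM (median 11.4) to 3.52, 1.98 and 2.65 CPM, a log2 change of -2.07 ± 0.38 (edgeR adjusted p 0.00802). Cd79b, known as a signalling chain of the B cell receptor, fell from a young range of 12.9 to 18.8 CPM (median 16.1) to 4.76, 0.9998 and 3.24 CPM, with a log2 fold change of -2.43 ± 0.60 (edgeR adjusted p 0.0454). Its partner chain Cd79a stayed under 1 CPM in all 10 libraries. The call of Cd79b was kept in 9 of the 23 left-out fits, with log2 fold changes of -2.93 to -1.98. Myo18b, Khdrbs3 and Mdfi lost theirs without young repopulated replicate 1 and without replicate 2, and Satb1 without replicate 2.

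Falls were also found among guidance and adhesion molecules. Sema6d, a transmembrane semaphorin, fell from a young range of 6.36 to 8.94 CPM (median 7.76) to 1.22, 1.80 and 0.265 CPM, with a log2 fold change of -2.81 ± 0.49 (edgeR adjusted p 0.00598). Efnb2, the membrane-bound ligand of EphB receptors, fell from a young range of 8.07 to 14.7 CPM (median 8.91) to 1.17, 1.73 and 2.01 CPM, a log2 fold change of -2.71 ± 0.45 (edgeR adjusted p 0.00382). Pecam1, an adhesion molecule of endothelial cells, platelets and leukocytes, fell from a young range of 13.97 to 23.9 CPM (median 18.2) to 3.99, 6.27 and 4.48 CPM, a log2 change of -1.94 ± 0.47 (edgeR adjusted p 0.0403). For all 3 the groups did not overlap, which the naming rule required. Vangl1 and Vangl2, membrane proteins of planar cell polarity, fell, with log2 fold changes of -2.49 and -1.21 (edgeR adjusted p 0.0301 and 0.0394), and none of the other 13 tested genes of that list, drawn up after the values were seen, was called. Within the families, 1 of 14 ephrins and Eph receptors, 1 of 26 semaphorins and plexins and 1 of 40 cadherins and protocadherins fell and none rose. Over all genes, 0.512% were called lower and 0.827% higher. The called members were Efnb2, Sema6d and Pcdhgc4, already among the largest falls, so these counts add no further genes. Pcdhgc4 was not called without any 1 of the 3 young repopulated libraries. Among the 25 integrins, 3 rose and none fell: Itga9 by 1.13, Itgal by 2.15 and Itgax by 1.65 on the log2 scale. Itga9 was called in all 23 left-out fits. Sema6d and Efnb2 were called in all but that without young repopulated replicate 1, Itgal in 14, Vangl1 in 18, Vangl2 in 15 and Pecam1 in 12, whose change was -2.11 to -1.81.

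**Figure D2:**
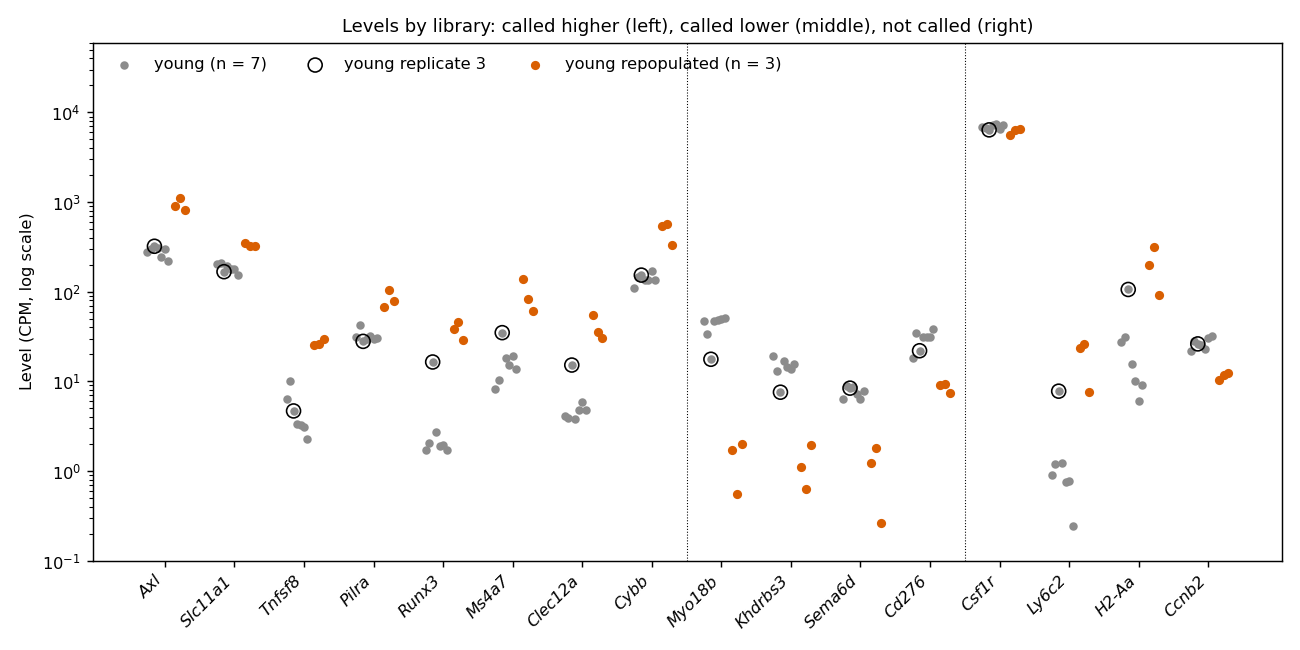
Level in each library, in CPM on a log axis, of 16 genes named in the text; grey points are the 7 young libraries, the ringed grey point is young replicate 3, and orange points are the 3 young repopulated libraries. The points of the 2 groups do not overlap in the 8 genes that were called higher, from Axl to Cybb, or in the 4 called lower, from Myo18b to Cd276. The naming rule required this of Runx3, Clec12a, Myo18b, Khdrbs3 and Sema6d. The 4 genes on the right were not called, and in Ly6c2 and H2-Aa young replicate 3 lies within or beside the young repopulated values.

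Of the 26 tested genes of the disease-associated set, 6 rose (Apoe, Axl, Clec7a, Cybb, Gpnmb and Itgax) and 1 fell (Ctsl), with a median log2 fold change of 0.26 against -0.04 over all genes. The share called over all genes was 0.827% higher and 0.512% lower. Apoe, a lipid carrier protein, lay at 3702 to 8915 CPM (median 7807) in young and 24501, 22557 and 15552 CPM in young repopulated libraries, a log2 change of 1.59 ± 0.35 (edgeR adjusted p 0.0251). Clec7a, the receptor dectin-1 for beta-glucans, lay at 195 to 296 CPM (median 248) against 642, 625 and 591 CPM, a log2 change of 1.34 ± 0.16 (edgeR adjusted p 0.000112). Itgax, the integrin chain CD11c, lay at 53.1 to 90.5 CPM (median 73.1) against 281, 162 and 251 CPM, a log2 fold change of 1.65 ± 0.33 (edgeR adjusted p 0.0134). Each of these 3 genes was above the whole young range in every young repopulated library. Cybb, the catalytic chain of the phagocyte NADPH oxidase, rose from a young range of 110.3 to 169 CPM (median 136) to 537, 567 and 335 CPM, with a log2 fold change of 1.77 ± 0.34 (edgeR adjusted p 0.012). Gpnmb, a transmembrane glycoprotein of lipid-laden macrophages, lay at 39.4 to 293 CPM (median 144) in young libraries and at 2929, 211 and 1229 CPM in the young repopulated ones, a log2 fold change of 3.32 ± 0.75 (edgeR adjusted p 0.0293); the value of replicate 2 lay within the young range. Ctsl, a lysosomal cysteine protease, fell from a young range of 2483 to 3442 CPM (median 2899) to 1301, 1111 and 1516 CPM, a log2 change of -1.15 ± 0.28 (edgeR adjusted p 0.0403). The upstream receptor Trem2 and its adaptor Tyrobp were not called, with log2 fold changes of 0.25 ± 0.28 and 0.27 ± 0.12. Axl and Clec7a were called in all 23 left-out fits, Apoe, Cybb and Itgax in 21, Gpnmb in 16 with log2 fold changes of 2.31 to 3.87, and Ctsl in 13. In libraries numbered 12 and above, 9 of the 26 rose and 6 fell, where 9.02% of all genes were called higher and 8.37% lower.

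No homeostatic gene was called in the fit of all libraries, among 25 tested, and their median log2 fold change was -0.36. The change was negative in 22 of the 25, where 46.2% of all genes were positive. In 9 of the 25 the 3 young repopulated values lay below all 7 young values, against 6.12% of all genes. By edgeR, 2 of the 25 had an unadjusted p under 0.05, while DESeq2 called 1 and voom 5. The same counts over all 18736 genes were 2832, 813 and 2575. P2ry12, the ADP receptor of resting microglia, lay at 1298 to 2010.4 CPM (median 1804) in young and 1175, 1119 and 1407 CPM in young repopulated libraries, a log2 fold change of -0.51 ± 0.47 (edgeR adjusted p 0.682). Sall1, the transcription factor that marks microglial identity, had one of -0.36 ± 0.56 (edgeR adjusted p 0.836). In the libraries numbered 12 and above, 8.37% of all genes were called lower and 9.02% higher. There 14 of the 25 homeostatic genes were called lower and 1 higher, with a median of -0.40. Fcrls, an Fc receptor-like protein specific to microglia among brain cells, was among them: it lay at 3650.1 to 3996 CPM in those 4 young libraries and at 1766, 1945 and 1898 CPM in the young repopulated ones, a change of -1.04 ± 0.06 (edgeR adjusted p 3.57e-05), against -0.88 ± 0.24 (edgeR adjusted p 0.0686) with all libraries. Crybb1, a crystallin expressed by developing microglia, lay at 78.99 to 113 CPM against 35.2, 33.2 and 46.5 CPM in the same libraries, a change of -1.33 ± 0.15 (edgeR adjusted p 0.000489). None of the 8 genes of the CSF receptors and their ligands was called by edgeR with all libraries, where 3 had an unadjusted p under 0.05, and DESeq2 called 1 and voom 2. Csf1, a ligand of the drug target, lay at 429 to 655 CPM (median 579) against 258, 192 and 349 CPM, and its change of -1.07 ± 0.49 (edgeR adjusted p 0.298) was -1.15 ± 0.17 (edgeR adjusted p 0.00185) in the libraries numbered 12 and above. In bulk libraries, fewer cells of a type and less RNA per cell cannot be told apart.

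Genes known from macrophages of bone marrow origin in the brain lay on one side. The 18 tested genes of this list all had a positive log2 fold change, with a median of 1.82, where 46.2% of all genes were positive. Of these 18, 6 were called higher (Apoe, Axl, Clec12a, Klra2, Lyz2 and Ms4a7) and none lower, against 0.827% and 0.512% of all genes. Ms4a7 (ENSMUSG00000024672.11, chromosome 19, 11321039 to 11336146), a membrane protein of the MS4A family, lay at 8.18 to 34.9 CPM (median 15.2) in young and 140.1, 82.1 and 60.8 CPM in young repopulated libraries, a log2 change of 2.47 ± 0.59 (edgeR adjusted p 0.0394). Clec12a, an inhibitory C-type lectin of myeloid cells, lay at 3.84 to 15.2 CPM (median 4.72) against 54.5, 35.9 and 30.1 CPM, with a log2 fold change of 2.73 ± 0.57 (edgeR adjusted p 0.0174). Lyz2, which encodes lysozyme, lay at 779.8 to 1759.7 CPM (median 908) against 4651, 4425 and 2449 CPM, a log2 fold change of 1.92 ± 0.44 (edgeR adjusted p 0.0309). The groups did not overlap for these 3 genes, and young replicate 3 held the highest young value of each. For Clec12a the naming rule required that separation. Of the 12 tested MS4A genes, 2 rose (Ms4a4a and Ms4a7) and none fell. The lists share members: Apoe and Axl are also in the disease-associated set. Ms4a7 is also in the MS4A list and among the markers of border-associated macrophages. Ms4a4a rose from a young range of 2.28 to 23.7 CPM (median 4.80) to 50.6, 97.4 and 28.03 CPM, a log2 change of 3.03 ± 0.76 (edgeR adjusted p 0.0466); without young replicate 3, at 23.7 CPM, the change was 3.73 (edgeR adjusted p 0.011). Left-out fits kept the call of Clec12a in 21 of 23, Lyz2 in 14, Ms4a7 in 14 and Ms4a4a in 7, all with positive changes, which for Ms4a7 were 2.07 to 2.74. With a term for the library number Ms4a7 changed by 2.11 (edgeR adjusted p 0.0818) and Lyz2 by 1.68 (edgeR adjusted p 0.0643). In libraries numbered 12 and above, 14 of 18 marrow-derived genes and 9 of 11 MS4A genes were called higher and none lower. Of all genes there, 9.02% were called higher and 8.37% lower.

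Markers of blood monocytes and of other macrophages were measured beside these genes. Of 16 tested monocyte markers none was called with all libraries, and the median log2 fold change was 1.21. In edgeR 4 of them had an unadjusted p under 0.05, while DESeq2 called 1 and voom 3. Over all 18736 genes, these numbers were 2832, 813 and 2575. Ly6c2, the surface antigen of classical monocytes, lay at 0.241 to 7.76 CPM (median 0.897) in young and 23.7, 26.2 and 7.61 CPM in young repopulated libraries, a log2 change of 3.39 ± 0.98 (edgeR adjusted p 0.0852). Young replicate 3 held the highest young value, and without it the change was 4.50 (edgeR adjusted p 0.0192). Ccr2, the receptor that draws monocytes from the marrow, lay at 4.20 to 45.8 CPM (median 7.70) against 48.1, 122 and 24.9 CPM, with a log2 fold change of 2.39 ± 0.90 (edgeR adjusted p 0.201), again with the highest young value, 45.8 CPM, in replicate 3. In libraries numbered 12 and above, 10 of 16 monocyte markers were higher and none lower, with Ly6c2 at 0.241 to 1.23 CPM in those young libraries. The summed level of the monocyte list was 823 to 2505 CPM (median 1621) in young and 1302, 1805 and 1421 CPM in young repopulated libraries, which overlap. Ly6c2 and Ccr2 hold little of that sum, which rests on more abundant members. Of the 16 monocyte markers, 14 had a positive log2 fold change with all libraries. Of 12 markers of border-associated macrophages 1 rose (Ms4a7), with a median log2 fold change of 1.37, and in libraries numbered 12 and above 8 of 12 were higher and 2 lower. Of all genes in those libraries, 9.02% were called higher and 8.37% lower, and with all libraries 0.827% and 0.512%. Mrc1, the mannose receptor, lay at 22.1 to 58.7 CPM (median 48.01) against 97.2, 127 and 103 CPM, Cd163 at 4.46 to 20.2 CPM (median 15.3) against 5.70, 4.999 and 5.67 CPM, and Lyve1 at 1.04 to 5.47 CPM (median 3.92) against 12.7, 2.36 and 17.6 CPM, and none of these 3 was called. The summed level of all 12 border-associated markers was 1094 to 1768 CPM (median 1576) against 1965, 1824 and 1590.0 CPM. Mrc1, Cd163 and Lyve1 hold little of that sum. The part of these cells in the rise of the marrow-derived genes was not tested.

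Markers of other cell types were measured in the same way. Cd209a, a C-type lectin of monocyte-derived dendritic cells, lay at 0 to 0.613 CPM (median 0.142) in young and at 5.53, 9.26 and 4.55 CPM in young repopulated libraries, a log2 fold change of 5.23 ± 0.80 (edgeR adjusted p 0.00195). It was the only called gene among 13 dendritic cell markers, where 0.827% of all genes were called higher and 0.512% lower. Over that list the median was 1.40, and 5 of 12 were higher and none lower in libraries numbered 12 and above. Of all genes there, 9.02% were called higher and 8.37% lower. Ccl5, a chemokine of T cells and of activated macrophages, rose from a young range of 4.69 to 17.1 CPM (median 6.82) to 46.4, 20.3 and 71.6 CPM, a log2 fold change of 2.52 ± 0.49 (edgeR adjusted p 0.0117). No other gene was called among the 13 T and NK markers. The summed level of the T and NK markers was 12.5 to 22.7 CPM (median 14.8) against 54.1, 24.7 and 81.95 CPM. In the young repopulated libraries most of that sum was Ccl5. Of 13 neutrophil markers 1 rose, Mmp8, at 0.229 to 5.06 CPM (median 2.52) against 28.6, 10.2 and 9.76 CPM. S100a9, a calcium-binding granulocyte protein, lay at 5.28 to 30.2 CPM (median 10.1) against 13.2, 54.2 and 22.8 CPM. Of 13 endothelial and mural markers 1 rose (Flt1, by 1.11) and 1 fell (Pecam1), and Cldn5, the tight junction protein of brain endothelium, lay at 0.318 to 7.73 CPM (median 0.833) against 0.47, 0.822 and 0.464 CPM. Cd209a was called in all 23 left-out fits, Ccl5 in 21, Mmp8 in 14 and Flt1 in 7.  Trbc2, a constant segment of the T cell receptor, was at 0 in all 7 young libraries and at 0.0641, 0 and 0.441 CPM in the young repopulated ones. Of 9 B cell markers Cd79b fell and none rose; the summed level of that list was 163 to 237 CPM (median 193) against 107, 87.7 and 124 CPM, without overlap, and most of it was Ighm, the heavy chain of IgM, at 147 to 208 CPM (median 173) against 100.4, 86.005 and 118 CPM. In edgeR none of 14 astrocyte, 11 neuron and 11 oligodendrocyte markers was called, while 1, 2 and 2 of them had an unadjusted p under 0.05. DESeq2 called 0, 0 and 1 of these markers, and voom 2, 3 and 3. Among all 18736 genes, 2832 had an unadjusted p under 0.05 in edgeR, and DESeq2 called 813 and voom 2575.

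Genes of MHC class II, which present peptides from engulfed material to CD4+ T cells, showed large and variable changes. Of 17 tested genes, 2 rose (H2-DMa and H2-DMb2) and none fell with all libraries, with a median log2 fold change of 0.47. The share called over all genes was 0.827% higher and 0.512% lower in that fit. In libraries numbered 12 and above, 9 of 16 rose and none fell, where 9.02% of all genes were called higher and 8.37% lower. Promoters of the classical chains are known for a conserved set of boxes that includes the Y box, which binds the factor NF-Y. The 200 bases before the start of 2 classical chain genes and of H2-DMa, a peptide-loading chain, are shown to set the levels beside this box (RefSeq, GRCm38.p6; 5′ to 3′). They come from chr17:34287824-34288023, minus strand for H2-Aa, chr17:34305667-34305866, plus strand for H2-Eb1 and chr17:34122632-34122831, plus strand for H2-DMa, and capitals mark CTGATTGG on either strand.
H2-Aa: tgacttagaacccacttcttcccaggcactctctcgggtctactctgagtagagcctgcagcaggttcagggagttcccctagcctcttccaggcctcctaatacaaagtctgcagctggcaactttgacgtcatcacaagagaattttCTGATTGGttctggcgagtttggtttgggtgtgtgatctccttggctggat
H2-Eb1: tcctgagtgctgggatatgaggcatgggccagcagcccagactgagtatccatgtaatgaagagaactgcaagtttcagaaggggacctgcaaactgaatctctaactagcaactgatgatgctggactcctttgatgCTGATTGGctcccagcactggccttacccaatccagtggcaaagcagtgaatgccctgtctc
H2-DMa: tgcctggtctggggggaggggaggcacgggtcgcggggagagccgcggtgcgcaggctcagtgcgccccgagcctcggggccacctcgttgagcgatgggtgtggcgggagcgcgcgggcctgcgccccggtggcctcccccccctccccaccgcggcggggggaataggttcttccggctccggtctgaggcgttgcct
The box lies 51 bases before the start in H2-Aa and 62 before it in H2-Eb1, and these letters are not in the H2-DMa window. That window belongs to the first of 2 listed starts of H2-DMa. Only these exact letters were searched, so a box with other letters would be missed. In the 250 bases before the first listed start, 4 of the 11 genes of this list in the table (36.4%) and 4.07% of all 27025 genes held the letters CTGATTGG on either strand; a match is a description of the letters only.

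The levels of the class II genes differed between the libraries of a group. H2-Aa lay at 6.09 to 106 CPM (median 15.7) in young libraries, with 106 CPM in replicate 3, and at 199, 313 and 92.3 CPM in young repopulated ones. The lowest of these lies within the young range, and the log2 fold change of 2.78 ± 0.82 was not called (edgeR adjusted p 0.0923). In the libraries numbered 12 and above, where young values were 6.09 to 15.7 CPM, the groups did not overlap and the change was 4.32 ± 0.42 (edgeR adjusted p 0.000294). H2-Eb1 lay at 5.24 to 88.04 CPM (median 13.6) against 177, 279 and 85.6 CPM, and its change was 2.84 ± 0.80 (edgeR adjusted p 0.0792) with all libraries and 4.32 ± 0.42 (edgeR adjusted p 0.000294) in those numbered 12 and above. Ciita, the factor that switches these genes on, lay at 0.0876 to 1.26 CPM (median 0.396) against 5.89, 6.22 and 2.07 CPM, with all 3 young repopulated values above the young range, and its change of 3.14 ± 0.83 (edgeR adjusted p 0.0613) was 4.12 ± 0.62 (edgeR adjusted p 0.00232) in the libraries numbered 12 and above. The called members had narrower ranges: H2-DMa lay at 91.2 to 107 CPM (median 99.7) against 145, 178 and 140.3 CPM, a log2 change of 0.65 ± 0.13 (edgeR adjusted p 0.0131), and H2-DMb2 at 4.62 to 7.61 CPM (median 6.002) against 12.4, 12.8 and 9.9986 CPM, with a log2 fold change of 0.94 ± 0.21 (edgeR adjusted p 0.0295). Left-out fits kept the call of H2-DMa in 21 of 23 and of H2-DMb2 in 17. Without young replicate 3 the changes of H2-Aa and H2-Eb1 were 3.61 (edgeR adjusted p 0.0187) and 3.62 (edgeR adjusted p 0.0172). Of 18 genes of class I and peptide loading none was called by edgeR, where 2 had an unadjusted p under 0.05, none by DESeq2 and 6 by voom. Among all 18736 genes, 2832 had such an unadjusted p in edgeR, and DESeq2 called 813 and voom 2575. In libraries numbered 12 and above, 7 of the 18 class I genes were higher and 2 lower, where 9.02% of all genes were called higher and 8.37% lower. Monocyte markers such as Ly6c2 and Ccr2 also had their highest young values in replicate 3, and their part in the class II levels was not tested.

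**Figure D3:**
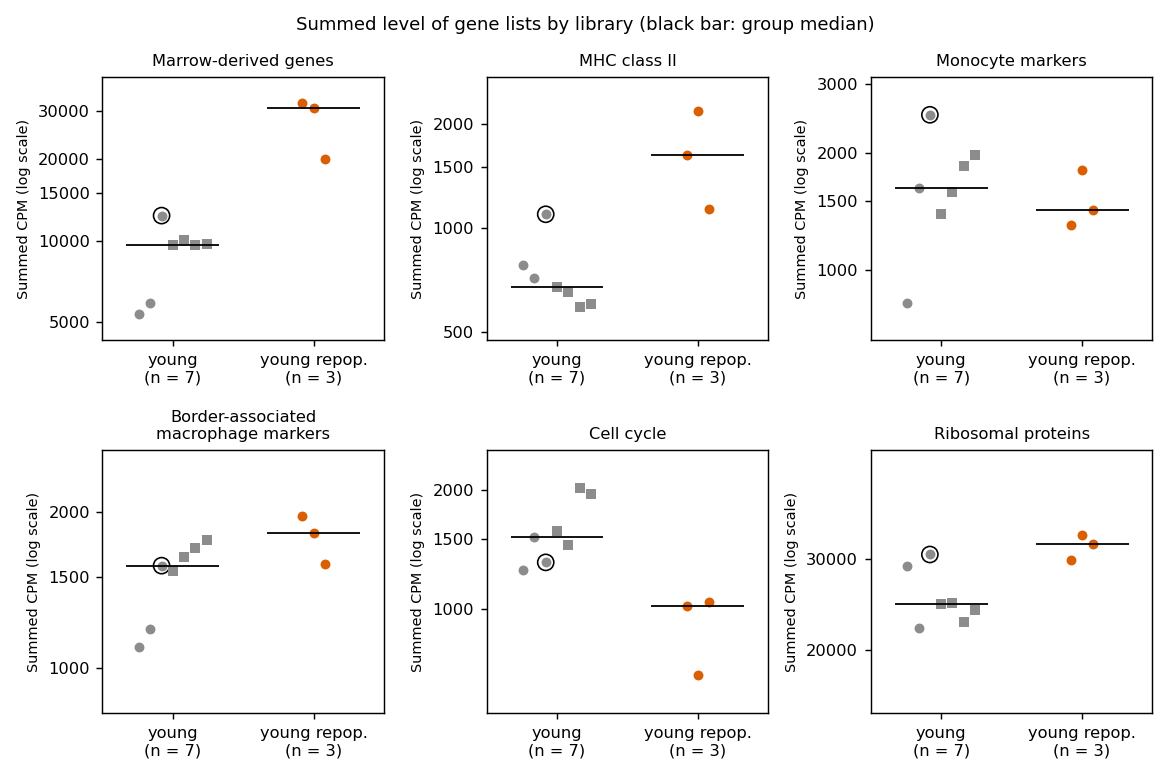
Summed level of 6 gene lists in each of the 10 libraries, in CPM on a log axis; grey points are young libraries (the ringed one is replicate 3, squares are those numbered 12 and above) and orange points are young repopulated libraries. The marrow-derived and MHC class II sums of the 3 young repopulated libraries lie above all 7 young ones, the cell cycle sum lies below them, and the monocyte and border-associated sums overlap. A sum follows its most abundant members, and in the young repopulated libraries most of the marrow-derived sum was Apoe.

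Genes of cell division had negative changes in the repopulated cells, but none was called with all libraries. In edgeR 29 of the 38 tested had an unadjusted p under 0.05, all of them lower, and DESeq2 called 11 and voom 29. Over all 18736 genes, in either direction, these numbers were 2832, 813 and 2575. All 38 tested genes of the cell cycle list had a negative log2 fold change, with a median of -0.88, and in 24 of them the 3 young repopulated values lay below all 7 young values. Over all genes tested, 6.12% lay below in that way. The summed level of the list was 1255 to 2019 CPM (median 1524) in young and 1017, 678 and 1040.0 CPM in young repopulated libraries, without overlap. In the libraries numbered 12 and above, 35 of the 38 were called lower and none higher, with a median of -1.02. Of all genes there, 8.37% were called lower and 9.02% higher. Many promoters of this kind are known for CCAAT boxes, bound by NF-Y, and for the CHR element TTTGAA, bound by the DREAM complex, so the 200 bases before the start of 3 mitotic genes that fell in those libraries are shown (RefSeq, GRCm38.p6; 5′ to 3′). They come from chr13:100786487-100786686, minus strand for Ccnb1, chr9:70421555-70421754, minus strand for Ccnb2 and chr4:118437344-118437543, minus strand for Cdc20; capitals mark CCAAT and TTTGAA on either strand.
Ccnb1: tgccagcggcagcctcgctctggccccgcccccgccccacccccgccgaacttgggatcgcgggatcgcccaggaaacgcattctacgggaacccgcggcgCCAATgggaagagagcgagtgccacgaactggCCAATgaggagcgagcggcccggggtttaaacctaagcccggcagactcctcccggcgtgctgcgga
Ccnb2: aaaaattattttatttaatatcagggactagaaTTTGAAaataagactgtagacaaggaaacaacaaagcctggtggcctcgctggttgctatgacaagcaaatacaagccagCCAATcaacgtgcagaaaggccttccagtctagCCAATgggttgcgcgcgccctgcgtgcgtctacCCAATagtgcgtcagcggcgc
Cdc20: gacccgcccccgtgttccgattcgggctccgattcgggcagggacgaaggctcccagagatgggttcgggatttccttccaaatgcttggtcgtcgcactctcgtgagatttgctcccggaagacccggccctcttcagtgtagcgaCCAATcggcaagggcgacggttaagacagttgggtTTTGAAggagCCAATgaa
CCAAT lay on either strand in the 250 bases before the first listed start of 23 of the 30 cell cycle genes in the table (76.7%), and of 34.5% of all 27025 genes; TTTGAA lay in 8 of the 30 (26.7%) and in 16.3% of all genes. These are counts of letters and not of bound sites.

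Ccnb1 and Ccnb2, the cyclins of mitotic entry, and Cdc20, the activator of the complex that ends mitosis, fell in the libraries numbered 12 and above. Ccnb1 lay at 16.04 to 27.9 CPM (median 20.5) in young and 10.5, 4.87 and 11.4 CPM in young repopulated libraries, below the whole young range, with a change of -1.27 ± 0.40 (edgeR adjusted p 0.123) over all libraries and -1.35 ± 0.27 (edgeR adjusted p 0.00856) in those numbered 12 and above. Ccnb2 lay at 21.5 to 31.7 CPM (median 26.1) against 10.2, 11.7 and 12.2 CPM, a log2 fold change of -1.23 ± 0.36 (edgeR adjusted p 0.0925) and -1.27 ± 0.13 (edgeR adjusted p 0.00036). For Cdc20 the levels were 12.8 to 19.8 CPM (median 16.5) against 8.52, 5.58 and 6.64 CPM, with changes of -1.23 ± 0.33 (edgeR adjusted p 0.0616) and -1.24 ± 0.18 (edgeR adjusted p 0.00205). Mki67, the proliferation antigen, lay at 109.6 to 298 CPM (median 189) against 119, 73.4 and 124 CPM, a log2 change of -0.89 ± 0.45 (edgeR adjusted p 0.363). Cdkn2a, which encodes the cell cycle inhibitors p16 and p19Arf, rose from a young range of 1.80 to 3.44 CPM (median 2.46) to 8.22, 11.1 and 7.66 CPM, a log2 change of 1.91 ± 0.30 (edgeR adjusted p 0.00218). Ccng1, a p53 target, rose from a young range of 72.3 to 102 CPM (median 92.5) to 119, 138 and 132 CPM, with a log2 fold change of 0.51 ± 0.12 (edgeR adjusted p 0.0384). These were the 2 called genes among 21 of the p53 and senescence list, where 0.827% of all genes were called higher and 0.512% lower. Cdkn2a was called in all 23 left-out fits and Ccng1 in 15; Ccnb1 and Ccnb2 passed the threshold without old repopulated replicate 1. Cdkn2a was also called higher in old repopulated microglia, with 1.41 ± 0.28 (edgeR adjusted p 0.0306).

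Small rises were found among ribosomal protein genes. Of 87 tested, 9 rose and none fell with all libraries, against 0.827% and 0.512% of all genes, and the median log2 fold change of the 87 was 0.30. In libraries numbered 12 and above, 64 of 87 rose and 1 fell, where 9.02% of all genes were called higher and 8.37% lower. Without any 1 of the 3 young repopulated libraries, 0 of the 87 were called by edgeR, and 44, 38 and 37 had an unadjusted p under 0.05. Rps27, a protein of the small ribosomal subunit, had the smallest adjusted p among them and lay at 242 to 369 CPM (median 291) in young and 478, 503 and 501 CPM in young repopulated libraries, a log2 fold change of 0.72 ± 0.14 (edgeR adjusted p 0.0112), a call lost without any 1 of the 3 young repopulated libraries. The share of ribosomal protein genes in all counts was 2.55% ± 0.314 (SD, n = 7) in young and 3.14% ± 0.209 (SD, n = 3) in young repopulated libraries (exact permutation test, two-sided p 0.0333, adjusted over 3 library measures 0.0625). The groups overlapped, with 2.992% and 2.994% in young replicates 1 and 3 and 2.929% in young repopulated replicate 1. The share of mitochondrially encoded transcripts was 2.33% ± 0.257 (SD, n = 7) against 1.91% ± 0.106 (SD, n = 3), with an exact two-sided permutation p of 0.0417 and an adjusted value of 0.0625. There too the groups overlapped, with 1.965% in young replicate 4 and 2.031% in young repopulated replicate 2. Of 13 mitochondrial genes 1 was called, mt-Nd6, at 573 to 806 CPM (median 722) against 385, 493 and 373 CPM, a call lost without young repopulated replicate 1 and without replicate 3. None of 77 nuclear-encoded subunits of the respiratory chain was called by edgeR, where 4 had an unadjusted p under 0.05. DESeq2 called 0 of them and voom 6. The same counts over all 18736 genes were 2832, 813 and 2575.

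**Figure D4:**
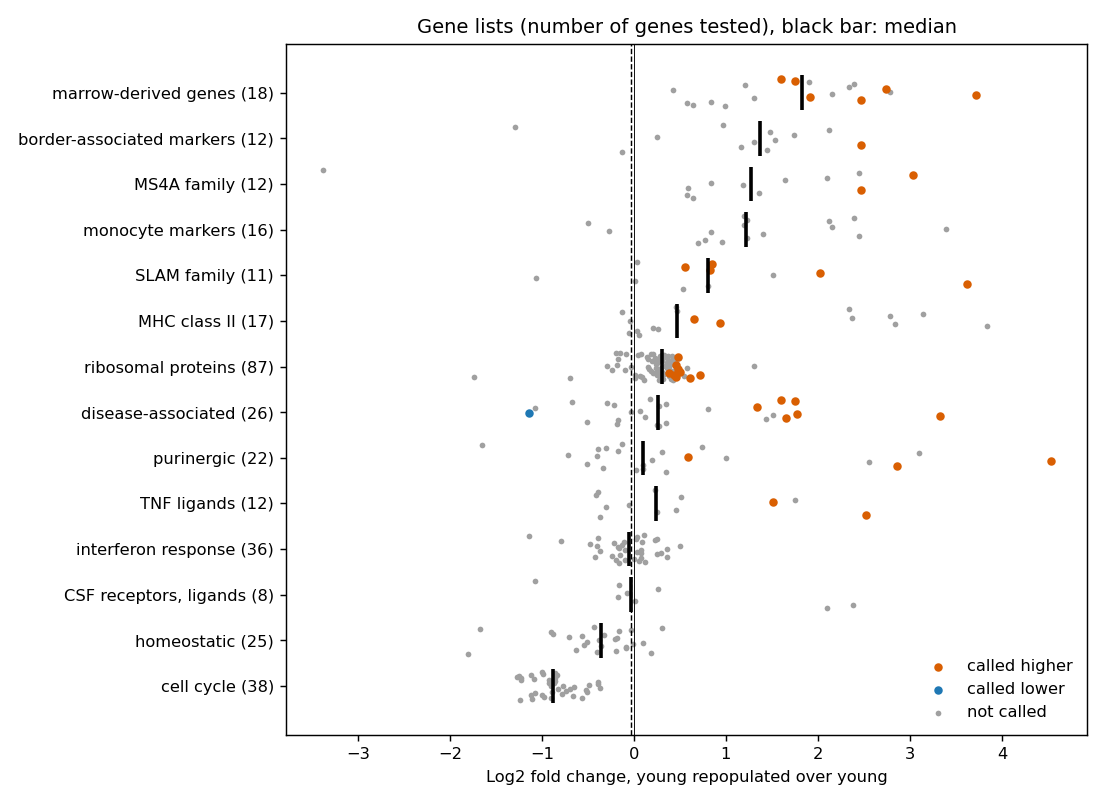
Log2 fold change of each tested gene (points) in 14 gene lists, young repopulated over young, with the list median as a black bar; orange points were called higher and blue points lower at an adjusted p under 0.05, and the dashed line marks the median of all genes, -0.04. All points of the cell cycle list lie below 0 and all points of the marrow-derived list above it.

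Receptors for nucleotides and ligands of the TNF superfamily held further rises. Of 22 genes of purinergic receptors and ectonucleotidases 3 rose (P2ry14, P2rx4 and P2ry1) and none fell, against 0.827% and 0.512% of all genes. P2ry14, a receptor for UDP-glucose, lay at 1.12 to 2.87 CPM (median 1.62) in young and 11.7, 15.4 and 12.1 CPM in young repopulated libraries, a log2 change of 2.86 ± 0.45 (edgeR adjusted p 0.00237). P2rx4, an ATP-gated ion channel, lay at 87.97 to 128 CPM (median 110.3) against 161, 179.5 and 147 CPM, with a log2 fold change of 0.58 ± 0.15 (edgeR adjusted p 0.0472). P2ry1, a receptor for ADP, was close to absent in young libraries, at no more than 0.386 CPM, and lay at 4.29, 0.667 and 0.927 CPM in the young repopulated ones. Of 12 TNF superfamily ligands 2 rose: Tnfsf8, described above, and Tnfsf13b, which encodes the B cell survival factor BAFF. Tnfsf13b lay at 11.3 to 23.8 CPM (median 14.4) against 39.8, 49.5 and 51.6 CPM, a log2 fold change of 1.51 ± 0.25 (edgeR adjusted p 0.00418). P2ry14, Tnfsf8 and Tnfsf13b were called in all 23 left-out fits, P2ry1 in 14 and P2rx4 in 8, where its change was 0.54 to 0.65. In edgeR none of 22 receptors of the superfamily and none of 22 cytokines was called, with 5 and 3 at an unadjusted p under 0.05. DESeq2 called 0 of either, and voom 3 receptors and 2 cytokines. Among all 18736 genes, 2832 had an unadjusted p under 0.05 in edgeR, and DESeq2 called 813 and voom 2575.

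Few checkpoint molecules were called, and these lay in both directions. Of 26 tested, 2 rose (Pilra and Cd200r4) and 1 fell (Cd276), against 0.827% and 0.512% of all genes. Cd276, the checkpoint ligand B7-H3, lay at 18.3 to 38.6 CPM (median 31.2) in young and 9.18, 9.44 and 7.44 CPM in young repopulated libraries, below the whole young range, a log2 change of -1.77 ± 0.26 (edgeR adjusted p 0.00115). Cd200r4, a relative of the receptor for CD200, lay at 3.13 to 7.70 CPM (median 5.26) against 20.4, 10.04 and 12.5 CPM, with a log2 fold change of 1.45 ± 0.33 (edgeR adjusted p 0.0293). Of 20 complement genes 2 rose (C3 and Itgax): C3, the central complement component, lay at 29.01 to 68.9 CPM (median 42.3) against 146, 162 and 123 CPM, a log2 fold change of 1.74 ± 0.33 (edgeR adjusted p 0.00991). Innate sensors showed single changes. Of 26 Toll-like receptor genes 2 rose, Tlr8 and Tlr13, the latter a sensor of bacterial ribosomal RNA that lay at 283 to 352 CPM (median 337) against 448, 456 and 468 CPM, a log2 change of 0.48 ± 0.12 (edgeR adjusted p 0.0403). Of 17 inflammasome genes Nlrc4 rose, from a young range of 0.448 to 2.19 CPM (median 0.662) to 4.42, 9.02 and 2.94 CPM. The adaptor Pycard fell from a young range of 109 to 151 CPM (median 126) to 85.6, 87.6 and 94.5 CPM, with a log2 fold change of -0.51 ± 0.11 (edgeR adjusted p 0.0239). Cd276 was called in all 23 left-out fits, C3 in 21, Cd200r4 in 17, Pycard in 20, Nlrc4 in 17 and Tlr13 in 12. None of 36 interferon response genes was called, and their median was -0.05. In edgeR 2 had an unadjusted p under 0.05, and DESeq2 and voom each called 1. The same counts over all 18736 genes were 2832 in edgeR, 813 with DESeq2 and 2575 with voom.

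Lysosomal and lipid genes changed in a few members. Gm2a, an activator protein of ganglioside breakdown in the lysosome, rose from a young range of 311 to 374 CPM (median 336) to 541, 581 and 510.5 CPM, a log2 fold change of 0.68 ± 0.10 (edgeR adjusted p 0.00115). Sgsh, a sulfatase that degrades heparan sulfate, rose from a young range of 16.1 to 22.2 CPM (median 20.1) to 64.7, 43.5 and 46.2 CPM, a log2 change of 1.40 ± 0.21 (edgeR adjusted p 0.00195). Ndst1, which adds sulfate to heparan chains during synthesis, rose from a young range of 25.9 to 37.2 CPM (median 29.8) to 87.1, 85.5 and 75.1 CPM, with a log2 fold change of 1.46 ± 0.19 (edgeR adjusted p 0.000442). These 3 genes were named after their values were seen, for their small adjusted p. Of 45 genes of the lysosome list, Ctsl fell and none rose, where 0.512% of all genes were called lower and 0.827% higher. Of 20 sterol synthesis genes 1 rose, Sc5d, an oxidase of the last steps, from a young range of 9.24 to 12.8 CPM (median 11.8) to 16.6, 18.4 and 16.4 CPM, a log2 fold change of 0.61 ± 0.13 (edgeR adjusted p 0.026). Acaca, the enzyme that commits acetyl groups to fatty acid synthesis, rose from a young range of 19.8 to 34.03 CPM (median 30.3) to 46.5, 54.7 and 50.04 CPM, a log2 change of 0.76 ± 0.15 (edgeR adjusted p 0.0131), and, besides Apoe, was the only called gene of 31 genes of lipid efflux and storage. Gm2a, Sgsh and Ndst1 were called in all 23 left-out fits, and Sc5d and Acaca lost the call without any 1 of the young repopulated libraries.

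Genes linked to alternative activation of macrophages held 2 called members among 16, Mgl2 and Retnla. The share called over all genes was 0.827% higher and 0.512% lower. Mgl2, a galactose-binding lectin, lay at 0.406 to 1.57 CPM (median 0.811) in young and 11.5, 9.58 and 6.03 CPM in young repopulated libraries, with a log2 fold change of 3.36 ± 0.52 (edgeR adjusted p 0.00215), and was called in all 23 left-out fits. Retnla, a secreted resistin-like protein, stayed under 1 CPM in all 10 libraries and is given here without a fold. It was called in 15 of the 23 left-out fits. Of 14 genes of the insulin-like growth factor system 1 was called: Igf1r, the receptor, fell from a young range of 18.9 to 42.4 CPM (median 35.8) to 12.1, 11.8 and 15.5 CPM, a log2 fold change of -1.39 ± 0.30 (edgeR adjusted p 0.0233). Among the 14 Kruppel-like factors 2 fell and none rose, Klf10 from a young range of 49.01 to 83.2 CPM (median 67.3) to 28.6, 28.4 and 34.8 CPM, a log2 change of -1.16 ± 0.19 (edgeR adjusted p 0.00454). Klf11 fell from a young range of 15.6 to 23.4 CPM (median 21.4) to 13.9, 10.6 and 13.4 CPM, with a log2 fold change of -0.68 ± 0.14 (edgeR adjusted p 0.0156). Both are known as early targets of TGF-beta signalling, and none of the 33 tested genes of the TGF-beta and BMP list was called by edgeR. An unadjusted p under 0.05 was found there in 6 of these, and DESeq2 called 1 and voom 4. Mmp28, a matrix metalloprotease, fell from a young range of 2.20 to 4.52 CPM (median 3.92) to 0.342, 0.711 and 0.441 CPM, a log2 fold change of -2.88 ± 0.43 (edgeR adjusted p 0.00183), and kept its call in all 23 left-out fits; Klf10 kept it in 21, Klf11 in 20 and Igf1r in 20. None of 24 immediate early genes, 23 heat shock genes, 17 Fc receptor genes or 19 outputs of the ERK pathway downstream of CSF1R was called by edgeR, which gave 6, 4, 2 and 7 of them an unadjusted p under 0.05. DESeq2 called 2, 0, 1 and 2 of these, and voom 4, 5, 3 and 6. Among all 18736 genes, 2832 had an unadjusted p under 0.05 in edgeR, and DESeq2 called 813 and voom 2575.

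The change on repopulation was then compared with that in old mice, where 5 old and 8 old repopulated libraries share no library with the young groups. Over all genes, 12 of 18736 were called higher (0.064%) and 40 lower (0.213%) in old repopulated than in old microglia. Of the 155 genes higher in young repopulated microglia, 5 were also called higher in old repopulated over old microglia, and of the 96 lower genes 16 were called lower there. The 5 genes higher at both ages were Pilra, Cdkn2a, Pxdc1, Ptpn9 and the predicted gene Gm6472, of which Pxdc1, Ptpn9 and Gm6472 were called in 17, 21 and 21 of the 23 left-out fits of the young change. The median log2 fold change of the 155 genes was 1.45 in young and 0.24 in old mice, and that of the 96 genes was -1.58 and -0.58 (over all genes, -0.04 and 0.00). The genes were chosen by the young values, and the old medians rest on other libraries. The difference between the ages was tested as an interaction, and 0 of 18736 genes (0%) were called by edgeR with all libraries, where 1543 had an unadjusted p under 0.05. DESeq2 called 43 and limma voom with quality weights 151.

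Single genes show how the levels lay at both ages. Runx3 had a mean of 93.3 ± 88.3 CPM (SD, n = 5) in old and 87.1 ± 59.2 CPM (SD, n = 8) in old repopulated microglia, a change of -0.10 ± 0.69 (edgeR adjusted p 0.99); its young libraries did not exceed 16.4 CPM. Axl changed by 0.71 ± 0.17 (edgeR adjusted p 0.0744) in old mice, from 463 ± 84.02 CPM (SD, n = 5) to 759.8 ± 214 CPM (SD, n = 8). H2-Aa lay at 449 ± 407 CPM (SD, n = 5) in old and 375 ± 282 CPM (SD, n = 8) in old repopulated libraries. The falls reached the threshold at both ages in Myo18b, with a log2 fold change of -3.69 ± 0.58 (edgeR adjusted p 0.0079) in old mice, in Khdrbs3, with -2.73 ± 0.43 (edgeR adjusted p 0.0079), and in Mmp28, with -2.39 ± 0.30 (edgeR adjusted p 0.0012). Sema6d and Efnb2 fell there too, with -2.01 ± 0.34 (edgeR adjusted p 0.0145) and -1.55 ± 0.31 (edgeR adjusted p 0.0327). For Runx3 the interaction was -3.31 ± 1.06 (edgeR adjusted p 0.436), for Axl -1.03 ± 0.25 (edgeR adjusted p 0.336) and for Cd276 1.34 ± 0.31 (edgeR adjusted p 0.336), so a difference in the change between ages was not called for them with all libraries. In the libraries numbered 12 and above of all 4 groups, the interaction was called for 1524 of 17187 genes (8.87%), and there it rests on 3 old, 3 old repopulated, 4 young and 3 young repopulated libraries, whose groups follow each other in the numbering.

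**Figure D5:**
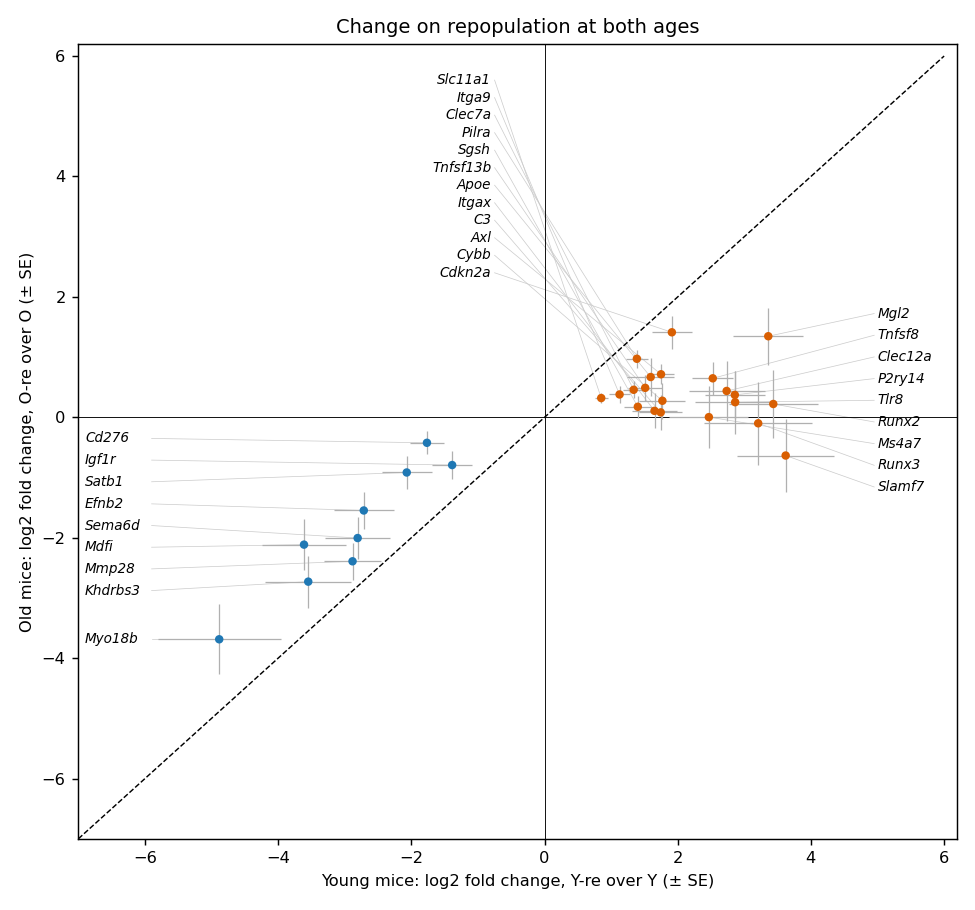
Log2 fold change on repopulation in young mice (horizontal axis, Y-re over Y) and in old mice (vertical axis, O-re over O) for 30 genes named in the text, with bars of 1 SE in each direction from the fit of all 23 libraries. The dashed line marks equal change. Genes that rose in young mice lie below that line, with Slamf7 and Runx3 under 0 on the old axis, and Myo18b, Khdrbs3, Mmp28, Sema6d and Efnb2 lie in the lower left. The genes were chosen mainly by their young values, so their place beside the line is no test of a difference between ages. That difference was called by edgeR for 0 of 18736 genes with all libraries.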

How the data were processed

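RNA of 23 microglial libraries was sequenced. The authors deposited expected counts and TPM for 53090 genes per library, per the file headers; expected counts are RSEM's estimates of reads per gene, and the deposited TPM values were not used for tests. The submitters' processing notes name FastQC 0.11.5, STAR, RSEM, limma and the build GRCm38; the annotation and the strand setting are not given in the sources used here. RSEM divides reads among similar or overlapping genes, so values of near-identical relatives are uncertain. Of the gene IDs, 49121 carry the same version in GENCODE M21, which gave the coordinates.

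Expected counts were rounded to whole numbers, filtered with filterByExpr and scaled with TMM. The edgeR (4.0.16, R 4.3.3) quasi-likelihood test was fitted to all 23 libraries with 1 coefficient per group, which share 1 estimate of the spread, and p-values were adjusted over all genes tested by the Benjamini-Hochberg method at 0.05. The pipeline was tested on simulated counts. Alternatives were RLE and upper-quartile scaling, testing every gene with a count, keeping genes with at least 5 CPM on average, DESeq2 1.42.0, limma 3.58.1 voom with quality weights, the young groups alone, the libraries numbered 12 and above, a term for numbers below or from 12, a test against a 1.5-fold change, and leaving out each library.

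Members, gene lists and tests were chosen with earlier results of these data known. Named genes are, first, the 12 largest rises and the 12 largest falls among called genes that had a mean of at least 5 CPM over the 10 libraries, the same call in libraries numbered 12 and above, and values that do not overlap between the groups. Up to 4 called members of each list or family follow, or 2 others where fewer were called, with the drug target, cell type markers and 3 genes of an earlier account. Chosen after their values were seen, outside that rule, were Runx1, Vangl1, Vangl2, Trem2, Tyrobp, Fcrls, H2-Aa, H2-Eb1, Ciita, Cdc20, Mki67, Gm2a, Sgsh, Ndst1, the genes called at both ages, those of the closing paragraphs and the SLAM, RUNX and planar cell polarity lists. Promoter sequences are from RefSeq on GRCm38.p6. Total counts were near equal, at 43.93 to 47.85 in units of 1000000 per library, and the number of libraries limits the precision. Some items are not reported here.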

Additional observations from a re-analysis of the deposited data

Results flagged for a closer look

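In 26 of the 111 named genes, 1 young library lay far from the other 6 relative to the range of the group. Chance sets apart about 1 in 20 groups. Of these 26 values, 19 were in young replicate 3, the library that stood apart on the first principal component. It was the highest of 7 for 16 genes. Among genes known from monocytes, marrow-derived macrophages and antigen presentation these were Ccr2 at 45.8 CPM, Ly6c2 at 7.76 CPM, Lyz2 at 1759.7 CPM, Ms4a4a at 23.7 CPM, Ms4a7 at 34.9 CPM, Clec12a at 15.2 CPM, H2-Aa at 106 CPM and H2-Eb1 at 88.0 CPM. The others were Runx3 at 16.4 CPM, Slamf7 at 6.29 CPM, Klrb1b at 7.60 CPM, Acp5 at 13.2 CPM, Atp8b4 at 2.53 CPM, C3 at 68.9 CPM, Myof at 23.6 CPM and Vangl1 at 7.35 CPM. Replicate 3 was the lowest of 7 for Ccng1, at 72.3 CPM, for Igf1r, at 18.9 CPM, and for Dpy19l3, at 7.96 CPM.

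The other 7 values were in other young libraries. Replicate 1 was the lowest for Acaca, at 19.8 CPM, and the highest for Ccl5, at 17.1 CPM. Pilra was highest in replicate 2, at 42.3 CPM, and Ndst1 in replicate 5, at 37.2 CPM. Replicate 4 was the highest for Cd209a, at 0.613 CPM, for P2ry1, at 0.386 CPM, and for Retnla, at 0.0909 CPM, all of which are low in all young libraries.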

How the results depend on the processing

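The number of genes called between young repopulated and young microglia was 251 with all libraries. It was 239 with RLE scaling, 255 with upper-quartile scaling, 271 with a mean of at least 5 CPM and 326 with a term for the library number. It was 165 without a filter, 813 with DESeq2, 2575 with voom and quality weights, 1254 with the young groups alone, 2753 in the libraries numbered 12 and above, and 20 when tested against a 1.5-fold change. Leaving out 1 library gave 33 (without young repopulated replicate 1) to 407 (without old repopulated replicate 1) genes in the fit of all libraries, 450 to 2061 with the young groups alone and 1863 to 2590 in the libraries numbered 12 and above, the last chosen after seeing the data. The difference between the ages was called for 0 genes with all libraries, 43 with DESeq2, 151 with voom, 1524 in the libraries numbered 12 and above, 7 with a term for the number, and 0 to 1 without 1 library. The cause of these shifts was not tested. Over the named genes that are reported here and all settings, 3081 log2 fold changes kept their direction and side of the threshold, 481 lost a call and 84 gained one. The term for the library number ended the calls of Acp5, Itgal, Kcnn4, Klra2, Klrb1b, Lyz2, Ms4a4a, Ms4a7, Myof, Nlrc4, P2rx4, Runx3 and Vangl2, with the sign kept. No paired analysis was possible because the library numbers are not shared between the groups. Counting depth was near equal in all 10 libraries; genes under about 1 CPM rest on few counts in most of them.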

Other observations

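A few further called genes, chosen for a known role after their values were seen, have not been described above. Kcnn4, a calcium-activated potassium channel of lymphocytes and microglia, rose from a young range of 2.46 to 5.66 CPM (median 3.57) to 29.004, 25.3 and 16.7 CPM, a log2 fold change of 2.61 ± 0.64 (edgeR adjusted p 0.0415). Ctse, an aspartic protease of the endosome, rose from a young range of 3.38 to 10.3 CPM (median 6.98) to 17.4, 25.7 and 16.4 CPM, a log2 change of 1.53 ± 0.36 (edgeR adjusted p 0.0332). Cmklr1, the receptor for chemerin, changed by 0.51 ± 0.10 (edgeR adjusted p 0.0121). Among the falls, Mt2, a metal-binding metallothionein, lay at 10.2 to 26.3 CPM (median 17.4) against 6.28, 5.07 and 6.84 CPM, a log2 fold change of -1.53 ± 0.34 (edgeR adjusted p 0.0289), and Kdm6b, a histone demethylase, at 236 to 428 CPM (median 290.3) against 144, 166 and 187 CPM, a change of -0.91 ± 0.22 (edgeR adjusted p 0.0403). Left-out fits kept the call of Kcnn4 in 12 of 23, Ctse in 15, Cmklr1 in 21, Mt2 in 18 and Kdm6b in 14.

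Siglec1, a sialic acid receptor of border and inflammatory macrophages, lay at 58.7 to 84.1 CPM (median 71.3) against 259, 162 and 161 CPM, and its change of 1.44 ± 0.40 (edgeR adjusted p 0.0716) was 1.42 ± 0.17 (edgeR adjusted p 0.000779) in the libraries numbered 12 and above. Cd36, a scavenger receptor for oxidised lipids, lay at 4.86 to 21.5 CPM (median 14.5) against 78.3, 63.7 and 44.7 CPM, with 2.12 ± 0.61 (edgeR adjusted p 0.0867) and 2.13 ± 0.22 (edgeR adjusted p 0.000405). Neither was called with all libraries.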
